A study of Mus musculus with 35 samples.

Results

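The ES marker genes followed here in mouse induced pluripotent stem (iPS) clones were 9: Zfp42, Eras, Gdf3, Dppa2, Dppa3, Dppa4, Dppa5, Fbxo15 and Utf1. They were taken by gene name from the annotation of an Agilent 1-colour mouse array, which gave 11 probes of 41174 gene probes, with 2 probes each for Zfp42 and Dppa5. All 11 passed the filter on dim probes. The genes were chosen by their measured levels in clones relative to ES cells, to set those low in every clone beside those back at the ES level, so the differences between clones and ES cells below are a description and were given no test.

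The 35 arrays held 30 iPS clones, 2 ES cell lines (EB-3 and RF 8) and 1 array each of the source cells. PαS cells are bone marrow mesenchymal stem cells sorted as CD45-Ter119-PDGFRa+Sca-1+, OP cells are osteo-progenitors of the same marrow sorted as CD45-Ter119-PDGFRa-Sca-1-, and TTF are tail tip fibroblasts. The clones came in 6 groups of 5. 4F-clones had received retroviral Oct3/4, Sox2, Klf4 and c-Myc, and 3F-clones the same factors without c-Myc, with a DsRed virus added in all groups. All source cells for iPS induction were from 6-week-old mice carrying a Nanog reporter with a drug resistance gene, and clones were picked as reporter-positive and DsRed-negative and grown on SNL feeder cells, so that every clone had been selected for Nanog activity at the time of picking. Each array of an iPS group is 1 clone, and how many mice gave the source cells was not given in the sources used here.

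In a mouse embryo the inner cell mass and the early epiblast express a network built around Oct3/4, Sox2 and Nanog, and ES cells keep it running in culture. The genes described here are downstream or peripheral parts of it. Several are silent in nearly all adult cells and are therefore read as signs that a reprogrammed cell has reopened its own pluripotency loci, and Fbxo15 was the reporter locus of the first iPS selections.

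The arrays fall into 3 scan sessions and 10 slides, and these follow the groups in part. All 30 clones were scanned in 1 session on 8 slides, EB-3 shared a session and a slide with the 3 source arrays, and RF 8 was scanned alone. Session and cell kind therefore cannot be told apart where clones are set against ES cells. Between 56.6% and 65.7% of gene probes were well above background on the clone arrays, against 64.3% on EB-3 and 71.1% on RF 8. Pou5f1, Nanog and Sox2 were well above background on both ES arrays and on no source array. EB-3 was above RF 8 by 2.89 in Pou5f1, 1.66 in Nanog and 0.13 in Sox2 (log2). The OP array did not match its sort at the RNA level: Pdgfra was 0.60 higher and Ly6a, the Sca-1 gene, 2.03 lower (log2) than on the PαS array, and both were well above background. The authors expanded source cells in culture between sorting and transduction. Whether the RNA on the arrays was taken before or after that step was not found in the sources used here. On the TTF array Ptprc, the CD45 gene of blood cells, was 9.88 higher (log2) than on the PαS array. Of the ES arrays, Ly6a was well above background on RF 8 only. Pdgfra was 2.59 above the mean of both ES arrays on RF 8 and 2.59 below it on EB-3 (log2).

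The summed level of 18 fibroblast genes, in units of each array's 75th percentile signal, was 46.9 on EB-3, 145 on RF 8 and 234 to 1012 on the clone arrays. That of 8 primitive endoderm genes was 1.54 on EB-3, 1.94 on RF 8 and 12.9 to 171 on the clone arrays. Every one of the 8 endoderm genes was well above background on every clone array, as were 17 or 18 of the 18 fibroblast genes. Both lists thus moved with the contrast of clones and ES cells, and their part in the differences of the ES marker genes was not tested.

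The RefSeq promoters supplied for this work, on mouse build GRCm38.p6, were matched by symbol to 3 of the genes, Zfp42, Eras and Utf1. These were the only ones of the 9 found there, and they differ in their level. Zfp42 stood lowest of the 9 against ES cells, Eras was low in most clones and Utf1 lay between both ES arrays in most. A link between promoter and level was not tested. Each run is the 250 bases before the transcription start, read 5′ to 3′ on the strand of the gene, and capitals mark the octamer ATTTGCAT, the core motif of Oct factors, and the GC box GGGCGG of Sp and Klf factors, searched on both strands. Zfp42 is at chr8:43307010-43307259 on the minus strand, Eras at chrX:7928608-7928857 on the minus strand and Utf1 at chr7:139943606-139943855 on the plus strand.
Zfp42: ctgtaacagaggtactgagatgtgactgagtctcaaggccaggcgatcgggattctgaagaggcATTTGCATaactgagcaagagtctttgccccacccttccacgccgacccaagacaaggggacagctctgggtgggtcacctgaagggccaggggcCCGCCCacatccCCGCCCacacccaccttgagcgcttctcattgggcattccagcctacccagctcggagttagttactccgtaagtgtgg
Eras: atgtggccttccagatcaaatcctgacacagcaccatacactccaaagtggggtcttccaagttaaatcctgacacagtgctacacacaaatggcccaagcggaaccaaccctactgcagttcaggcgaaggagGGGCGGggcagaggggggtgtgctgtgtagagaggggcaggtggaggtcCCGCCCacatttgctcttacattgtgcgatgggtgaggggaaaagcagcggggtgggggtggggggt
Utf1: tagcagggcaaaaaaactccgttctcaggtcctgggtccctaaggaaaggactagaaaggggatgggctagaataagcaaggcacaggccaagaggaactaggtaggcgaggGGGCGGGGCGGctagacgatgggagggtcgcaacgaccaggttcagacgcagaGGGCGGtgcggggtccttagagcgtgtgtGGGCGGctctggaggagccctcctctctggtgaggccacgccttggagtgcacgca

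The Zfp42 promoter held 1 octamer, which began 186 bases before the start, and neither of the others held one in this window. Among 32851 promoters of the same length 1.60% held the octamer and 32.7% a GC box. GC boxes numbered 2 in Zfp42, 2 in Eras and 4 in Utf1, of which 2 overlapped each other. The Zfp42 promoter had 9 CpG, the Eras promoter 6 and the Utf1 promoter 14, against a median of 6 over all promoters.

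Zfp42 encodes Rex1, a zinc-finger protein related to Yy1 and a classical marker of undifferentiated ES cells. It was low in every clone. EB-3 and RF 8 lay 0.20 above and below their mean, and values below are log2 differences of a clone from that mean. The 4F-PαS-iPS clones #1 to #5 read -4.06, -4.61, -4.28, -3.90 and -4.43. The 3F-PαS-iPS clones read -4.06, -4.63, -4.85, -4.98 and -4.57. These 10 clones spanned little more than 1 log2 unit and all were well below ES cells.

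The OP-iPS clones were more spread. The 4F-OP-iPS clones read -9.48, -8.68, -9.07, -4.65 and -5.38, and the 3F-OP-iPS clones -6.69, -4.88, -5.08, -4.26 and -4.31. Clones #1 to #3 of 4F-OP-iPS were thus far under all the others, while #4 and #5 lay among the 3F-OP-iPS clones. The 4F-TTF-iPS clones read -7.16, -6.64, -3.17, -6.07 and -6.23, and the 3F-TTF-iPS clones -5.29, -5.09, -4.68, -4.41 and -4.55. Clone 4F-TTF-iPS #3 was the highest of all 30, and it too was over 8-fold below the ES mean.

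Over the 30 clones the median of Zfp42 was -4.77 (SD 1.55), 27.2-fold below the ES mean. All 30 were below both ES arrays, as was the case for 14.4% of the 27623 probes tested, and all 30 were over 8-fold below the ES mean, as for 0.13% of them (36 probes). In no clone was the gene under the background limit of its array. On the PαS, OP and TTF arrays it was not well above background, at least 16847-fold, 10480-fold and 11533-fold below the ES mean. The clones thus lay between source cells and ES cells. In these bulk RNA samples fewer cells with the gene active and less of its RNA per cell cannot be told apart. Whether the probe reads the transcript alike in clones and ES cells was not tested.

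The second Zfp42 probe was also low in every clone, with a larger gap: median -6.92, range -12.03 to -3.53, with 4F-TTF-iPS #3 highest again. It read lower than the first probe in 30 of 30 clones, by a median of -2.19 (range -2.56 to -0.36), and the difference was smallest in 4F-TTF-iPS #3. EB-3 was above RF 8 by 0.39 on the first probe and 0.35 on the second. Why the probes disagreed on the clones was not tested, so the size of the gap to ES cells is uncertain. Among the 36 probes over 8-fold low in all clones it had the lowest median. Its reading in 4F-OP-iPS #1 was not well above background. On build mm7 the first probe is annotated at chromosome 8, 42080746 to 42080805. The probes share the run tgtgctattgaaggggatgg, 20 of the 60 bases of each, shown because it means that they are not independent measurements.

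**Figure D1:**
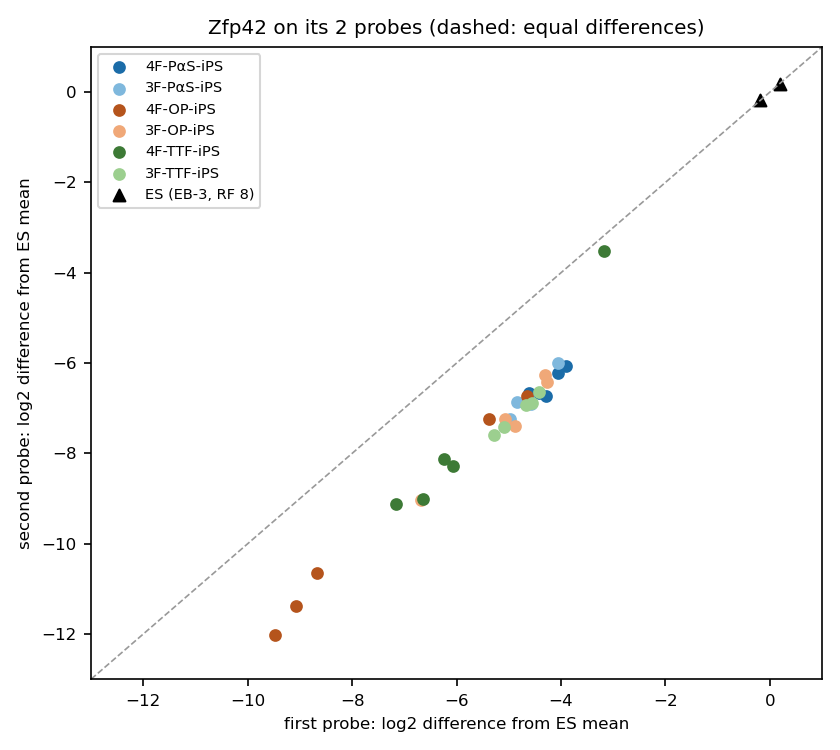
Log2 difference of each clone from the mean of both ES arrays on the first (x axis) and second (y axis) Zfp42 probe, with groups by colour and ES arrays as triangles. All 30 clones lie under the dashed line of equal differences, and 4F-TTF-iPS #3 lies nearest to it and to the ES arrays.

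Dppa5 (Esg1), a KH-domain RNA-binding protein confined largely to pluripotent and germ cells, had the highest median of the 9 genes on its first probe against the mean of the ES arrays. Against EB-3 alone, or on its second probe, Dppa3 was higher. EB-3 and RF 8 lay 0.49 above and below their mean. The 4F-PαS-iPS clones #1 to #5 read 0.66, 0.88, 0.35, 0.90 and 0.57, and the 3F-PαS-iPS clones 0.89, 0.60, 0.31, 0.11 and 0.54. The 4F-OP-iPS clones read -7.97, -4.00, -5.60, 0.80 and 0.21, and the 3F-OP-iPS clones -0.46, 0.55, 0.72, 0.69 and 0.74. All 10 PαS-iPS clones were above the ES mean, and the same 3 of the 4F-OP-iPS clones that were lowest in Zfp42 were over 8-fold below it.

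In the 4F-TTF-iPS clones Dppa5 read -5.22, -1.43, 0.47, -0.27 and -0.20, and in the 3F-TTF-iPS clones 0.18, 0.19, 0.34, 0.43 and 0.44. The median over all clones was 0.39. Of the clones, 12 were above both ES arrays, 13 between them and 5 below both. The source arrays read -8.40 (PαS), -6.40 (OP) and -6.62 (TTF), all well above background, so clone 4F-OP-iPS #1 was within the range of the source cells. The second Dppa5 probe, which the array design places on chromosome 5 and not on chromosome 9 as the first, had a median of -0.17 and shared no run longer than 5 bases with the first. Whether it measures the same transcript was not tested. On that probe 5 of the 10 PαS-iPS clones were above the ES mean and 0 of all clones were above both ES arrays. Against EB-3 alone the median of the first probe was -0.09, and against RF 8 alone 0.88.

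**Figure D2:**
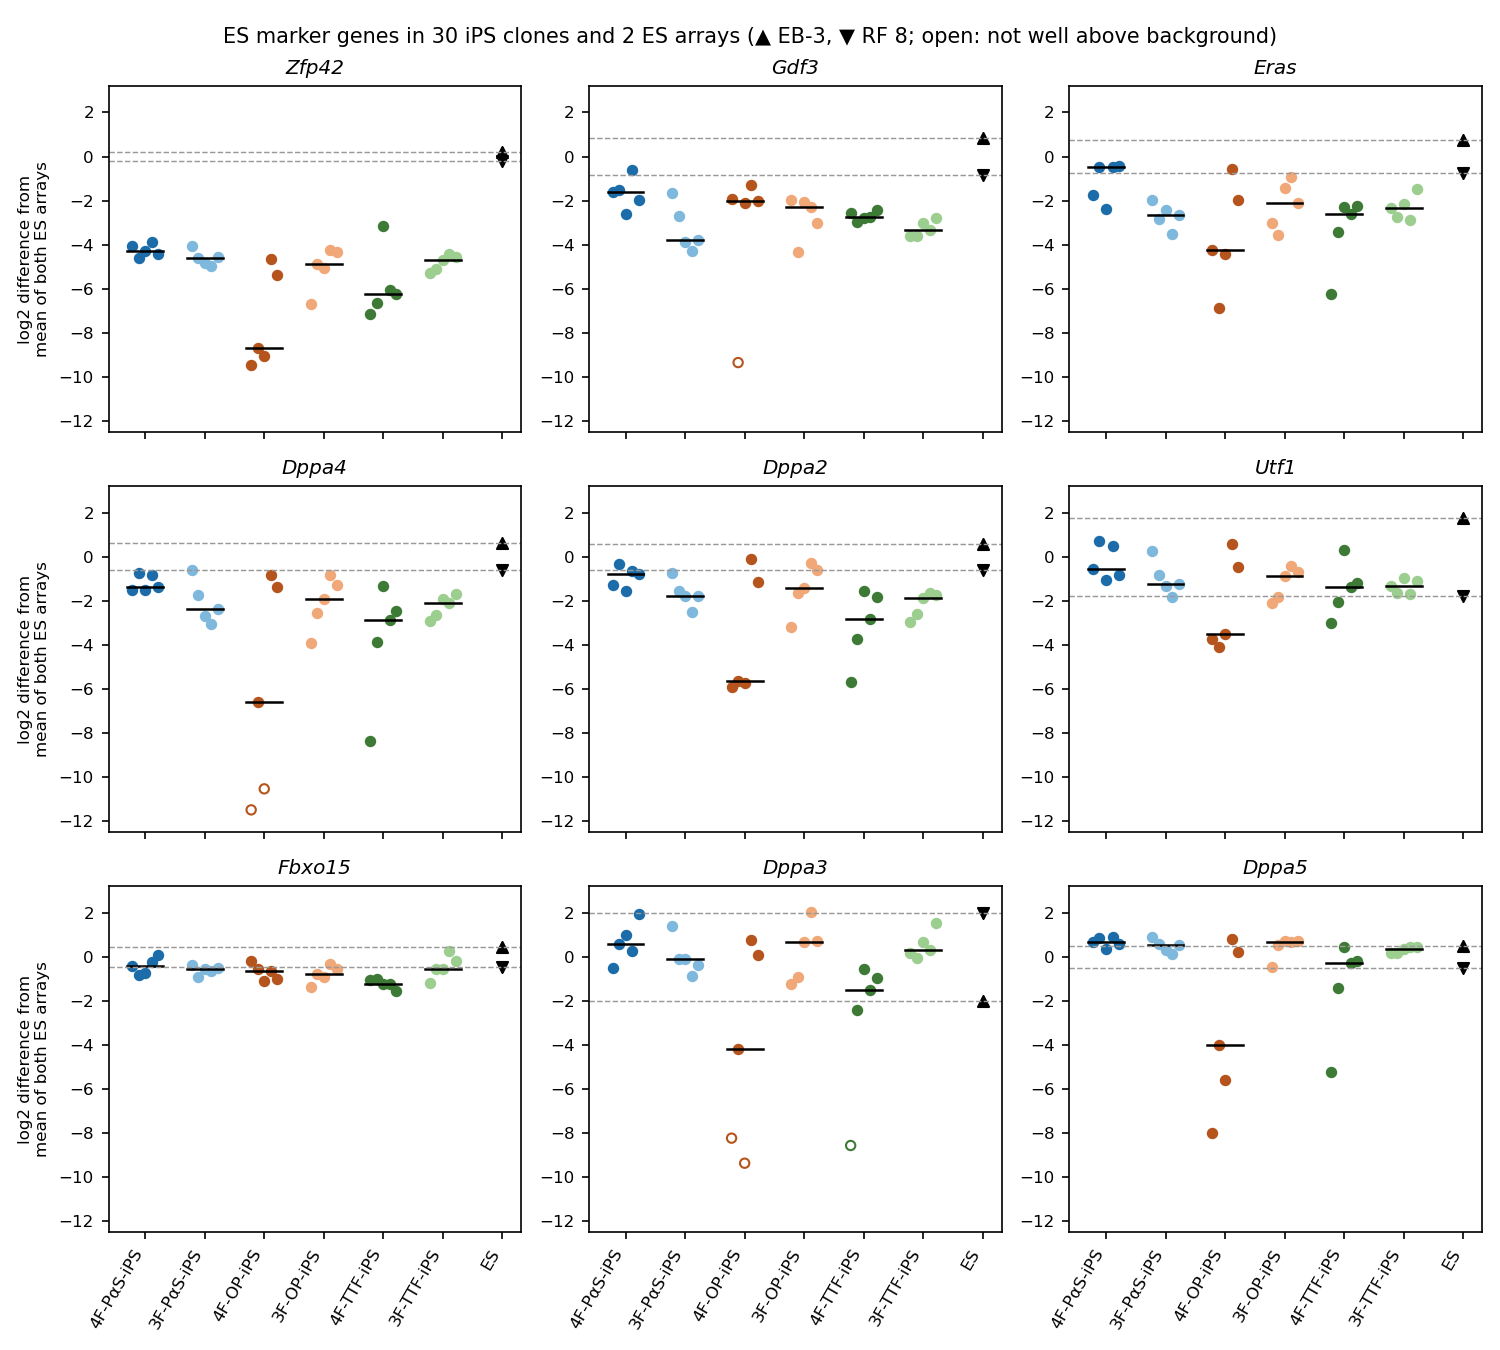
Log2 difference from the mean of both ES arrays for each gene (first probe) in each clone by group, with group medians as bars, ES arrays as triangles joined by dashed lines across the panel, and readings not well above background as open circles. Zfp42 lies under both ES arrays in all 30 clones, while most clones lie between or above the ES arrays for Dppa3 and Dppa5.

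The order of the 9 genes by their median over the clones was Zfp42 (-4.77), Gdf3 (-2.66), Eras (-2.37), Dppa4 (4.01-fold lower), Dppa2 (-1.69), Utf1 (-1.15), Fbxo15 (-0.65), Dppa3 (-0.06) and Dppa5 (0.39). Zfp42 and Gdf3 were the only neighbours in this order whose interquartile ranges did not overlap. The order depends on the ES line: against EB-3 and RF 8 alone the medians were -3.11 and -1.63 for Eras, -2.60 and -1.40 for Dppa4, and -2.28 and -1.10 for Dppa2. Against RF 8 alone Dppa3 was the lowest after Zfp42. Of the 9, 6 had a median over 2-fold below the ES mean, as did 21.7% of the probes tested, and 3 were within 2-fold, as were 58.5%. Since the choice of genes used this contrast, nothing is read from these shares.

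The secreted factor of the set, Gdf3, a TGF-β family ligand of the Nodal type, was below both ES arrays in 29 of 30 clones. EB-3 and RF 8 lay 0.86 above and below their mean. The groups ranged from -2.61 to -0.63 in 4F-PαS-iPS, -4.27 to -1.66 in 3F-PαS-iPS, -4.35 to -1.98 in 3F-OP-iPS, -2.97 to -2.43 in 4F-TTF-iPS and -3.63 to -2.79 in 3F-TTF-iPS. The 4F-OP-iPS clones read -1.95, -9.35, -2.09, -1.29 and -2.01. Clones #1 and #3, which were among the lowest in Zfp42 and Dppa5, were not set apart in Gdf3, whereas in #2 the gene was not well above background.

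Gdf3 was also measurable on the TTF array, at -4.79, and not well above background on the PαS array (at least 662-fold below ES) and the OP array (at least 412-fold). Its probe on chromosome 6 (122643573 to 122643632, mm7) is 23.3 kb from that of Dppa3 (122666937 to 122666996), which lies 83.9 kb from the Nanog probe. The medians of these neighbours were -2.66 in Gdf3 and -0.06 in Dppa3 against the mean of the ES arrays, and -3.52 and 1.95 against EB-3 alone. Against RF 8 alone they were -1.80 and -2.07, so their order depended on the ES line.

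Eras, a Ras-like GTPase that is active without a stimulus and supports the growth of ES cells, was below both ES arrays in 26 clones. EB-3 and RF 8 lay 0.74 above and below their mean. The 4F-PαS-iPS clones #1 to #5 read -1.75, -0.46, -2.39, -0.47 and -0.45, so that 3 of the 4 clones between the ES arrays were in this group. The other was 4F-OP-iPS #4 at -0.57. The 3F-PαS-iPS clones, from -3.54 to -1.98, overlapped those of the 4F-PαS-iPS group only in part. The lowest clones were 4F-OP-iPS #2 at -6.89 and 4F-TTF-iPS #1 at -6.23. Eras was not well above background on any source array, at least 341-fold below ES cells.

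Dppa2 and Dppa4 encode SAP-domain proteins that bind each other on chromatin, and their probes are 24.9 kb apart on chromosome 16. Dppa4 was below both ES arrays in 30 of 30 clones and Dppa2 in 27. EB-3 and RF 8 lay 0.60 (Dppa4) and 0.59 (Dppa2) above and below their means. The 4F-OP-iPS clones read -11.49, -6.57, -10.54, -0.84 and -1.40 in Dppa4, where #1 and #3 were not well above background. They read -5.90, -5.64, -5.74, -0.12 and -1.14 in Dppa2. Clone 4F-TTF-iPS #1 read -8.36 in Dppa4 and -5.68 in Dppa2. It and 4F-OP-iPS #1, #2 and #3 were the 4 lowest clones in both genes.

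Without those 4 clones Dppa4 ranged from -3.93 to -0.62 and Dppa2 from -3.74 to -0.12. The source arrays differed between both genes. Dppa4 was not well above background on any of them (at least 861-fold below ES), whereas Dppa2 was measured on all 3 at -6.83, -6.66 and -5.89. The lowest clones in Dppa2 were therefore at the level of the TTF array.

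Utf1, a chromatin-bound protein whose enhancer is a textbook target of Oct3/4 and Sox2, was hard to place because the ES lines were 11.7-fold apart, with EB-3 at 1.78 and RF 8 at -1.78. Between them lay 22 clones, and 8 were below both. The 4F-PαS-iPS clones spanned -1.06 to 0.72 and the 3F-PαS-iPS clones -1.81 to 0.26. The lowest were 4F-OP-iPS #2, #1 and #3 at -4.10, -3.72 and -3.51. Against RF 8 alone the median of the clones was 0.63, and against EB-3 alone -2.93.

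Fbxo15, the F-box protein gene used for the first iPS selections, was the least variable of the 9, with an SD of 0.43 over the clones. It read from -1.57 (4F-TTF-iPS #5) to 0.25 (3F-TTF-iPS #4), and no clone was over 8-fold low. Clones 4F-OP-iPS #1, #2 and #3, which were over 8-fold low in most of the other genes, read -0.17, -0.54 and -1.08. On the source arrays it was measured at -10.28 (PαS), -10.03 (OP) and -10.91 (TTF), 1047- to 1920-fold below ES cells. The median clone was 9.38 (log2) above the highest source array, against 4.20 for Dppa2, 4.72 for Utf1 and 6.79 for Dppa5, the other genes measured on all 3 source arrays. Against EB-3 alone the median was -1.10 and against RF 8 alone -0.20.

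Dppa3 (Stella, PGC7), which shields the maternal genome from demethylation in the zygote, was the only gene of the 9 with a higher level on RF 8 (2.01) than on EB-3 (-2.01), a 16.2-fold difference. Its median over the clones was -0.06, and 24 clones lay between the ES arrays. Against EB-3 alone the median was 1.95 and against RF 8 alone -2.07, so whether the clones were above or below ES cells depended on the line. The 4F-OP-iPS clones read -8.23, -4.20, -9.36, 0.78 and 0.10, and the 4F-TTF-iPS clones -8.56, -2.41, -0.54, -1.52 and -0.94. In 4F-TTF-iPS #1 and the 4F-OP-iPS clones #1 and #3 the gene was not well above background, whereas 4F-OP-iPS #2 still had a measured level. The highest clones were 3F-OP-iPS #4 at 2.03, above both ES arrays, and 4F-PαS-iPS #5 at 1.94. On the TTF array Dppa3 was measured at -5.68.

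**Figure D3:**
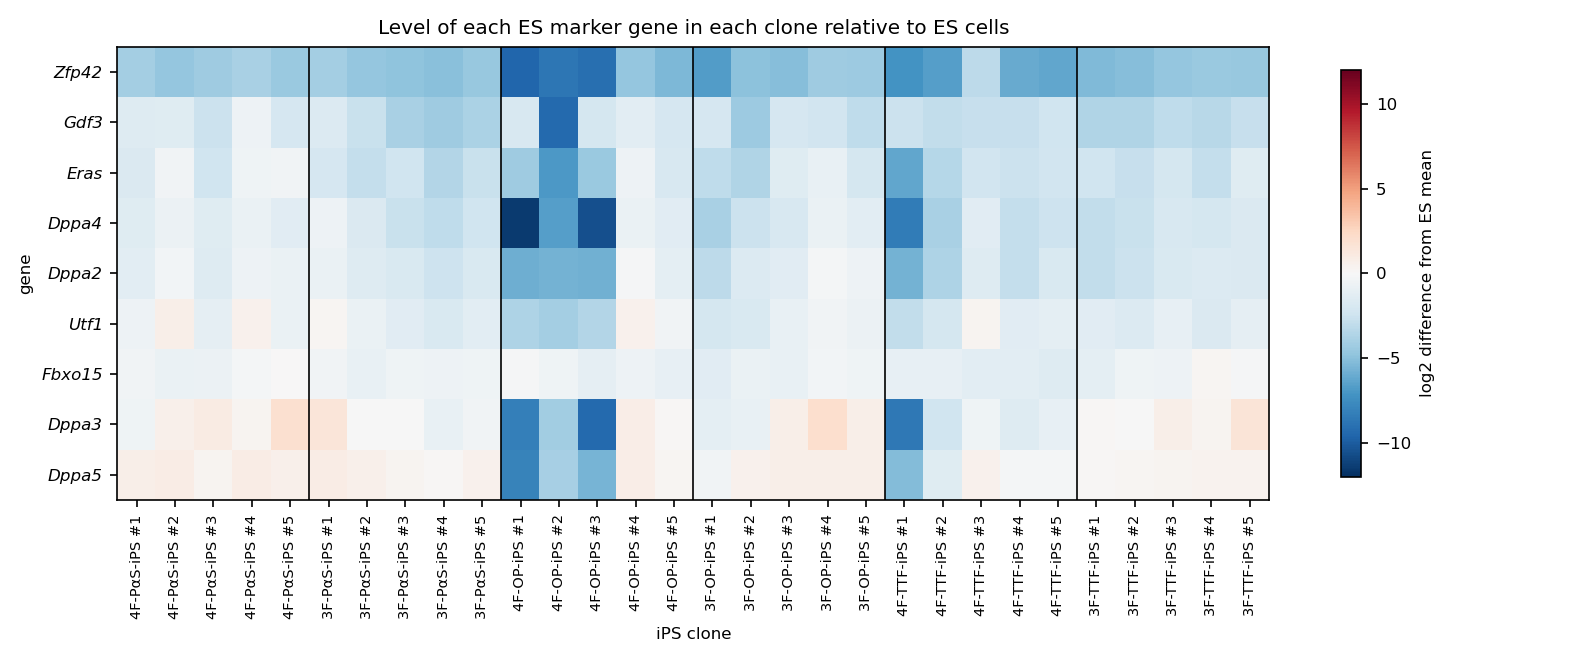
Log2 difference of each gene (row, ordered by median) from the ES mean in each clone (column, by group), with blue below and red above ES cells. The Zfp42 row is blue in all 30 columns, and 4F-OP-iPS #1 to #3 and 4F-TTF-iPS #1 are dark in most other rows but pale in Fbxo15.

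Leaving Zfp42 aside, the number of the other 8 genes that were over 8-fold below ES cells was 7 in 4F-OP-iPS #2, 6 in 4F-OP-iPS #1 and #3 and 5 in 4F-TTF-iPS #1. It was 3 in 3 clones, 2 in 1 clone, 1 in 7 clones and 0 in 15 clones. The share of all probes over 8-fold below ES cells in each clone was not counted. The numbers are therefore not read as particular to these genes. The summed level of the fibroblast genes was 234 to 521 in those 4 clones and 239 to 1012 in the other 26, and that of the endoderm genes 28.3 to 171 and 12.9 to 116. These ranges overlap, and the highest endoderm value of all was in 4F-OP-iPS #2.

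The next question was whether the source cell or c-Myc made a difference among clones, a contrast that the choice of the genes did not use. The fit with limma covered all 27623 probes, p-values were adjusted after Benjamini-Hochberg over all of them, and a gene was called at an adjusted p under 0.05 and at least 2-fold. Labels do not say whether the clones of a group came from separate cultures, so the p-values measure the spread between clones.

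Between PαS-iPS and OP-iPS clones 1 of the 9 genes was called, against 1.6% of all probes in either direction and 0.815% higher in PαS-iPS clones. Zfp42 was 1.81 (log2, SE 0.51) higher in PαS-iPS clones, with a limma adjusted p of 0.0442. The PαS-iPS clones spanned -4.98 to -3.90 and the OP-iPS clones -9.48 to -4.26, so the groups overlapped. All 9 genes had a positive difference, with a median of 1.26, and 5 had an unadjusted p under 0.05, as did 21.5% of all probes, but the other 8 did not pass the test. The differences of Dppa4 (2.49, SE 1.01), Dppa3 (2.29, SE 1.06) and Dppa5 (2.01, SE 0.76) were larger or similar in size with larger errors. Those of Dppa4 and Dppa3 hold readings not well above background among the 4F-OP-iPS clones, so their sizes are not firm.

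The 4 low clones carried much of these differences: without 4F-OP-iPS #1 to #3 and 4F-TTF-iPS #1 that of Zfp42 was 0.59, and 6 of the 9 positive differences turned negative. Since those clones were picked for low levels of these genes, values without them describe their share and are no test. Leaving out single clones gave Zfp42 differences of 1.56 to 2.16 with limma adjusted p-values from 0.00593 to 0.105. The call was lost without any 1 of the 3F-PαS-iPS or 3F-TTF-iPS clones, of 4F-PαS-iPS #1, #3, #4 and #5, of 4F-OP-iPS #1 and #3, of 3F-OP-iPS #1 and #3, or of 4F-TTF-iPS #2 and #4. It was also lost with normexp background correction, with quantile scaling and with no filter on dim probes. On the second Zfp42 probe the difference was 1.83 (limma adjusted p = 0.0857). Without 4F-OP-iPS #4, 4 of the 9 genes were called, against 3.82% of all probes in that fit. With slide as a fixed block the difference was 2.23 (limma adjusted p = 0.101). Within the 3 slides that held both kinds of clone it was 4.72, 1.76 and 1.01, in each case higher in PαS-iPS clones, from 2 against 2, 1 against 3 and 2 against 2 clones.

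Between PαS-iPS and TTF-iPS clones 0 of the 9 genes were called by limma (background 0.5%), and 1, Dppa2, had an unadjusted p under 0.05 (16.6% of all probes), at 1.34 (SE 0.63, limma adjusted p = 0.278). Between OP-iPS and TTF-iPS clones 0 were called (background 0.0217%) and 0 had an unadjusted p under 0.05 (10.2% of all probes). The differences lay between -1.12 and 0.09 in that comparison. The same clones enter these comparisons, so they are not independent of each other.

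Among OP-iPS clones, 3F against 4F, 2 of the 9 genes were called, against 4.51% of all probes in either direction and 3.94% higher in 3F-clones. Dppa5 was 3.76 (SE 1.08) higher in 3F-OP-iPS than in 4F-OP-iPS clones (limma adjusted p = 0.0311). Zfp42 was 2.41 (SE 0.72) higher (limma adjusted p = 0.0382). In both genes the groups overlapped, since 4F-OP-iPS #4 and #5 lay within or close to the range of the 3F-OP-iPS clones. Dppa3 (4.44, SE 1.49, limma adjusted p = 0.0618) and Dppa4 (4.07, SE 1.43, limma adjusted p = 0.0745) did not pass. Each holds 2 readings not well above background among the 4F-OP-iPS clones, and with those readings at their bound the differences were 3.77 and 3.40. Fbxo15 was the only gene with a negative difference (-0.10, SE 0.24). On the second probes Dppa5, where the transcript measured is uncertain, differed by 4.21 (limma adjusted p = 0.029) and Zfp42 by 2.33 (limma adjusted p = 0.0949). The median summed level of the fibroblast genes was 642 in 3F-OP-iPS (239 to 1012) and 351 in 4F-OP-iPS clones (234 to 521). That of the endoderm genes was 35.8 and 34.3, and the part of both lists in these differences was not tested.

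Without the same 4 clones, which leaves 2 clones of 4F-OP-iPS, Dppa5 differed by -0.05 and Zfp42 by -0.03, and all 8 positive differences turned negative, again as a description. No slide held 3F-OP-iPS and 4F-OP-iPS clones together. With slide as a random block Dppa5 differed by 3.96 (limma adjusted p = 0.143) and Zfp42 by 2.52 (limma adjusted p = 0.165). Both calls were also lost with normexp background correction. Leaving out single clones gave limma adjusted p-values of 0.0032 to 0.127 for Dppa5 and 0.00372 to 0.142 for Zfp42, and the number of genes called ranged from 0 to 5. It was 0 without each of 4F-OP-iPS #1, #2 and #3 and 3F-OP-iPS #2, #3, #4 and #5, where 1.65% to 4.51% of all probes were called. It was 5 without 4F-OP-iPS #4 or #5, where 8.22% and 5.74% of all probes were called.

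Among PαS-iPS clones, 3F against 4F, 0 of the 9 genes were called by limma (background 0.0181%) and 0 had an unadjusted p under 0.05 (17.3% of all probes). All 9 differences were negative, with a median of -0.74. The largest were Gdf3 (-1.60, SE 0.93) and Eras (-1.59, SE 0.83). No slide held 3F- and 4F-PαS-iPS clones together, or 3F- and 4F-TTF-iPS clones. The median summed level of the fibroblast genes was 509 in 3F-PαS-iPS (351 to 592) and 320 in 4F-PαS-iPS clones (256 to 392). That of the endoderm genes was 92.1 and 51.7, and the part of both lists in these differences was not tested. Among TTF-iPS clones 0 were called (background 5.77%), while 2 had an unadjusted p under 0.05 (26.1% of all probes). With slide as a random block the calls over all probes fell from 1595 to 7 in this comparison and from 138 to 6 between PαS-iPS and TTF-iPS clones. Fbxo15 was 0.77 (SE 0.24) higher in 3F-TTF-iPS clones at a limma adjusted p of 0.0392, under the 2-fold limit. Dppa3 was 3.32 (SE 1.49) higher with a limma adjusted p of 0.154, or 2.90 with the 1 reading not well above background, in 4F-TTF-iPS #1, at its bound. With slide as a fixed block, which only 2 clones on shared slides connect, these differences became -0.12 and -0.06.

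**Figure D4:**
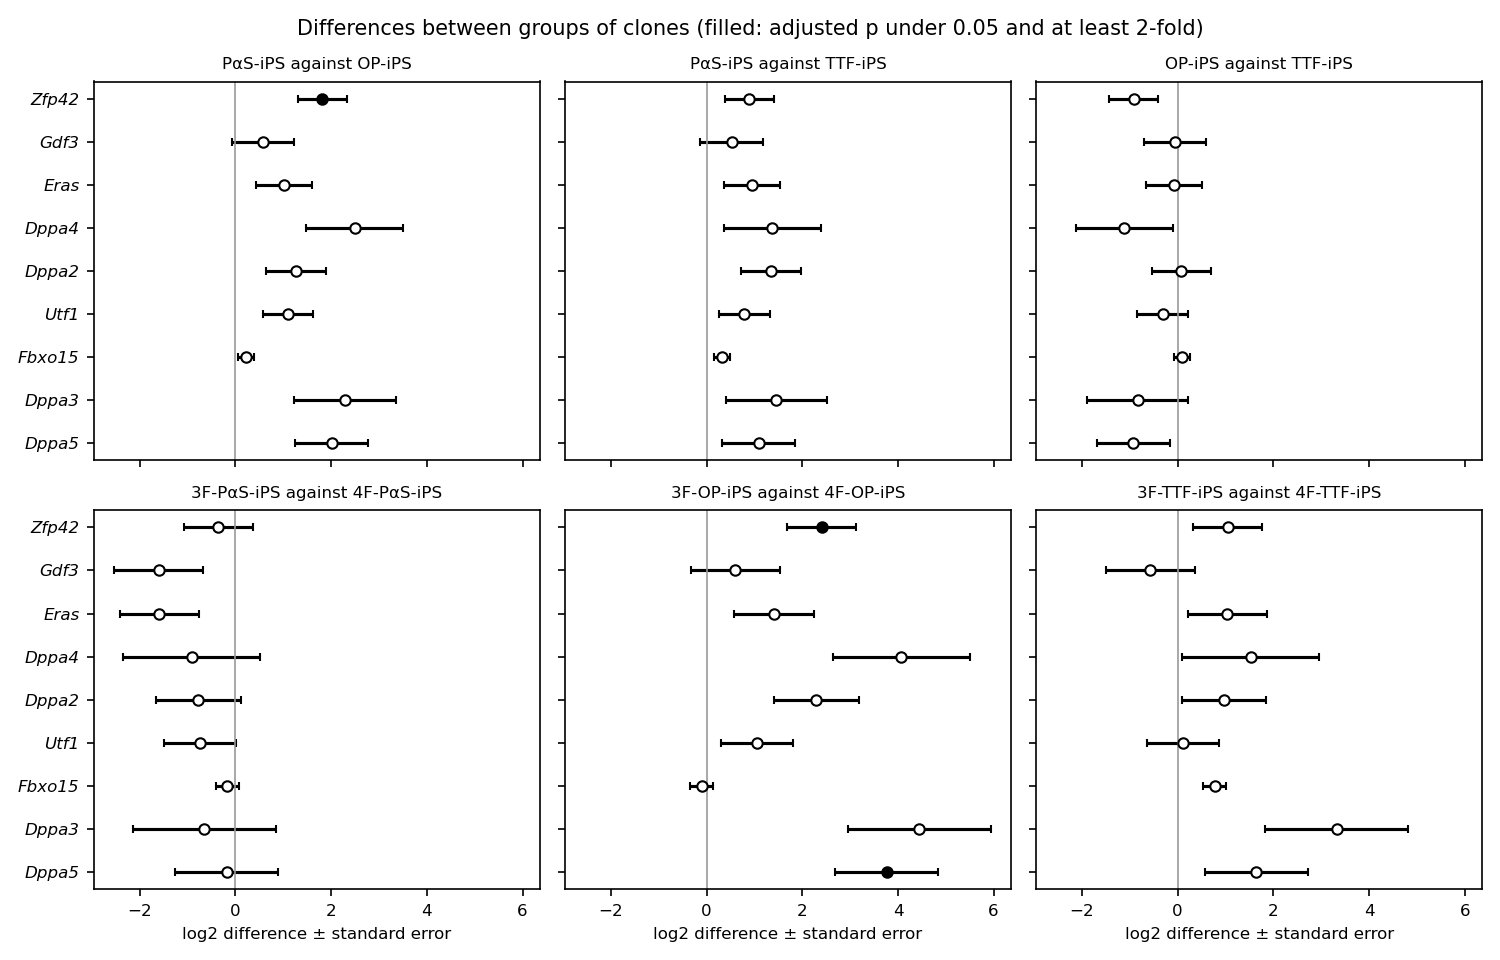
Log2 difference ± standard error of each gene from the limma fit in 3 comparisons of sources (top) and 3 of 3F- against 4F-clones (bottom). Filled points, which passed an adjusted p of 0.05 and 2-fold, are Zfp42 in PαS-iPS against OP-iPS and Zfp42 and Dppa5 in 3F-OP-iPS against 4F-OP-iPS.

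The difference of the differences was tested as well. The effect of 3F against 4F in PαS-iPS minus that in OP-iPS clones was negative in 9 of 9 genes, and 0 were called by limma (background 0.648%), with 6 at an unadjusted p under 0.05, as were 18.9% of all probes. For PαS-iPS minus TTF-iPS 0 were called (background 0.583%, and 2 at an unadjusted p under 0.05 against 19.3% of all probes), and for OP-iPS minus TTF-iPS 0 (background 0%, and 1 at an unadjusted p under 0.05 against 3.72% of all probes). An effect of 3F against 4F that differed between sources was thus not shown for any of the genes. Without 4F-OP-iPS #4 the calls over the 3 tests were 6 of 27, while the calls over all probes were 6.43%, 1.28% and 0% in the same order.

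The wider network gave the frame for these genes. Of 38 other genes of the pluripotency network 33 were on the array, and 21 of them had a median over 2-fold below the ES mean, 11 were within 2-fold and 1 was over 2-fold above. Their medians had a median of -1.39, that of the 9 ES marker genes was -1.69, and that of all probes tested was -0.10. The lowest were Lefty1 (-4.88), Lefty2 (-4.02), both antagonists of Nodal, and Tdgf1 (-3.44), the Nodal co-receptor Cripto. The highest were the Krüppel-like factor Klf2 (1.09), Stat3 (0.87), which carries the LIF signal, and Sox15 (0.42). Lefty1 alone had a median under that of the first Zfp42 probe.

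On EB-3 27 of the 33 network genes and 8 of the 9 ES marker genes were higher than on RF 8, as were 47.8% of all probes tested. Over 2-fold higher on EB-3 were 22 and 5 of them, and 13.5% of all probes. In the tests between clones, Dnmt3l, a cofactor of de novo DNA methylation, was called between PαS-iPS and OP-iPS clones (2.39, SE 0.65, limma adjusted p = 0.0371). Tbx3 (2.18, SE 0.55, limma adjusted p = 0.017) and Nodal (2.56, SE 0.80, limma adjusted p = 0.0451) were called between 3F- and 4F-OP-iPS clones, all higher in the first group named. These were 1 of 33 network genes against 1.6% of all probes and 2 of 33 against 4.51%. Tbx3 also differed in its 3F against 4F effect between PαS-iPS and OP-iPS clones (-3.22, SE 0.78, limma adjusted p = 0.0484). Without the 4 low clones these differences were 0.79 (Dnmt3l), 0.78 (Tbx3), 0.15 (Nodal) and -1.82 (Tbx3 between sources), as a description. With slide as a random block the Dnmt3l call was kept (2.57, limma adjusted p = 0.0356). The other calls were not kept, with differences of 2.08 for Tbx3 (limma adjusted p = 0.12), 2.86 for Nodal (limma adjusted p = 0.11) and -3.11 for Tbx3 between sources (limma adjusted p = 0.0542). The calls over all probes between 3F- and 4F-OP-iPS clones fell from 1246 to 168 with that block.

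**Figure D5:**
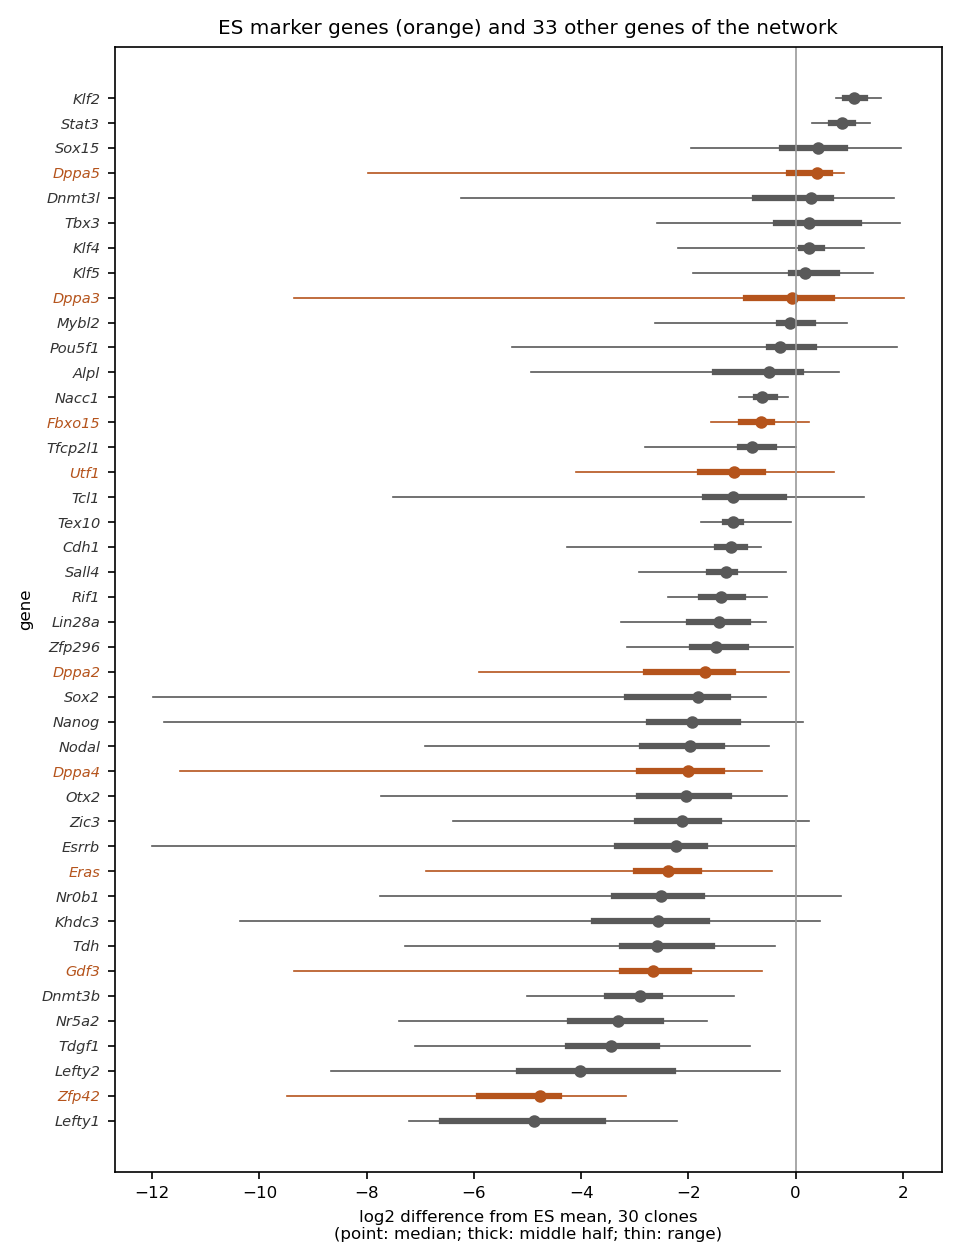
Median (point), interquartile range (thick line) and range (thin line) over 30 clones of the log2 difference from the ES mean, for the 9 ES marker genes (orange) and 33 other network genes (grey). Zfp42 lies next to Lefty1 and Lefty2 at the bottom, and Dppa3 and Dppa5 lie among Klf4, Klf5 and Pou5f1 near 0.

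Genes whose pattern over the 30 clones was most like that of each ES marker gene were taken among 18456 other genes. For Dppa3 this was Nanog (Pearson r = 0.984), for Dppa5 it was Dppa4 (0.977), and for Dppa4 a transcript listed as AK082760 (0.987) and Sox2 (0.987). For Zfp42 it was Dnmt3l (0.962), for Dppa2 2610305D13Rik (0.966), for Gdf3 Nipsnap1 (0.952), for Utf1 Mkrn1 (0.948), for Eras Gfpt2 (0.923) and for Fbxo15 Dnaja3 (0.850). The clones share sessions and slides, and the 4 low clones stood apart from the rest. Over the other 26 clones the same r was 0.886 for Dppa3 and Nanog, 0.826 for Dppa5 and Dppa4, 0.898 for Dppa4 and Sox2, and 0.886 for Zfp42 and Dnmt3l, and that of Fbxo15 and Dnaja3 stayed at 0.850.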

How the data were processed

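Total RNA of 30 iPS clones, 2 ES lines and 3 source cell samples was labelled with Cy3 and hybridised to Agilent mouse arrays, 1 sample per array. The deposited files hold spot intensity values that Agilent Feature Extraction (10.5.1.1, 10.7.3.1 and 9.5.3.1 in the submitters' processing notes) had background-subtracted, with no scaling between arrays. A log2 table that the authors made in GeneSpring GX was also deposited and served as an alternative. Their filter on duplicate analyses could not be applied.

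Control and outlier-flagged spots were left out and spots of a probe averaged, which left 41174 probes. The processed intensity was put on the log2 scale and each array's 75th percentile was subtracted. A probe was well above background where the scanner software said so for most of its spots. Probes well above background on all arrays of at least 1 of 7 groups (6 of clones, 1 of ES cells) were tested, in 1 fit with limma 3.58.1 in R 4.3.3. Dim readings entered at their value. In simulated data with 200 of 27623 probes changed by 8-fold, 92.5% to 98.5% were recovered in the 6 comparisons of clones. The noise was independent between arrays and smaller changes were not simulated, so these shares do not hold for changes near the 2-fold limit. Where a gene had several probes, the brightest over clones and ES cells was the main one. Gene names and mm7 positions are those of the array design, whose names can be old. Bounds for a dim source array set the ES mean against the higher of the probe's own reading and the lowest signal well above background on that array. The number of arrays, not read depth, limits precision.

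The genes and lists were chosen with earlier results of these data known. Alternatives were the authors' log2 table, a fit of the clones without the ES arrays, normexp background correction (offset 50), quantile scaling, no filter on dim probes, no fold minimum, slide as a fixed or random block, the replicate number as a block, other probes, 1 ES array alone, and leaving out single clones or the clones with low Sox2 and Nanog (4F-TTF-iPS #1 and 2 of 4F-OP-iPS, #1 and #3). Leaving out 4F-OP-iPS #2 as well was added after the data had been seen. Descriptive values came from Python 3.11.15 with pandas 2.3.3.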

Additional observations from a re-analysis of the deposited data

Results flagged for a closer look

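Within each group of 5 clones, a clone was looked at again where its gap to the nearest other clone was over 0.71 of the group's range. This was done for 54 sets of 5 values (9 genes in 6 groups), of which chance alone gives about 1 in 20. It picked out 5 values, all log2 differences from the ES mean. Zfp42 in 4F-TTF-iPS #3 was the highest of its group at -3.17, with the next clone at -6.07. Eras in 4F-TTF-iPS #1 was the lowest at -6.23, with the next at -3.41. Dppa3 in the same clone was the lowest at -8.56, a reading not well above background, with the next at -2.41. At its bound of -6.45 its gap was 0.683 of the range, under the limit. Gdf3 in 4F-OP-iPS #2 was the lowest at -9.35, also not well above background, with the next at -2.09. At its bound of -7.70 its gap was 0.875 of the range. Dppa5 in 3F-OP-iPS #1 was the lowest at -0.46, with the next at 0.55.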

How the results depend on the processing

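The medians of the 9 genes against ES cells and their calls between clones were recomputed under the alternatives that apply to each. Slide as a fixed block could be fitted for PαS-iPS against OP-iPS, 3F- against 4F-TTF-iPS and 1 comparison between sources only. The single Zfp42 call between PαS-iPS and OP-iPS clones became 0 calls with normexp, with quantile scaling, with no filter on dim probes, with slide as a fixed block, with the second probe, and without the 3 or 4 low clones, and leaving out single clones gave 0 to 4. The 2 calls between 3F- and 4F-OP-iPS clones became 0 with normexp, with slide as a random block and without the 3 or 4 low clones, 1 with no filter on dim probes and 1 with the other probes, and 0 to 5 without single clones. With no fold minimum 1 gene, Fbxo15, was called between 3F- and 4F-TTF-iPS clones. The tests between sources of the 3F against 4F effect gave 0 to 6 calls without single clones. No other count of calls among these 9 genes moved by over 1.5 times, while counts over all probes did.

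The median of Zfp42 was -6.92 with the second probe. Against EB-3 or RF 8 alone the medians were -1.10 and -0.20 for Fbxo15, -2.93 and 0.63 for Utf1, 1.95 and -2.07 for Dppa3, and -0.094 and 0.88 for Dppa5, so the sign for these last 3 genes depends on the ES line. Within 2-fold of the ES level were 1 gene against EB-3 alone and 3 against RF 8 alone. Without the 4 low clones the differences 3F against 4F in OP-iPS turned to -0.028 (Zfp42), -0.79 (Dppa2), -0.18 (Dppa3), -0.98 (Dppa4), -0.054 (Dppa5), -0.94 (Eras), -1.09 (Gdf3) and -1.24 (Utf1), and those of PαS-iPS against OP-iPS to -0.021 (Dppa3), -0.031 (Dppa4), -0.049 (Utf1), -0.16 (Eras), -0.27 (Gdf3) and -0.28 (Dppa2), and since the clones left out were picked for low levels this is no test. With slide as a fixed block, Dppa3 and Fbxo15 turned to -0.056 and -0.12 between 3F- and 4F-TTF-iPS, and the cause was not tested.

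Clone numbers did not pair clones across groups: 16 of 75 same-numbered pairs had a correlation of deviations over 0.1, and 6 of 30 clones were most like a clone of their own number. With the replicate number as a block, 1 gene was called between PαS-iPS and OP-iPS clones and 3 between 3F- and 4F-OP-iPS clones, Dppa3 being added (4.44, limma adjusted p = 0.039), and 0 in the other comparisons.

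With 2 ES arrays from different sessions the ES level has no replicate within a line, and each source level is 1 array. Readings of clones not well above background, second probes aside, 2 each in 4F-OP-iPS for Dppa3 and Dppa4, 1 there for Gdf3 and 1 in 4F-TTF-iPS for Dppa3, have no firm size, which affects the errors of those comparisons.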
